A study of Saccharomyces cerevisiae with 23 samples.

Results

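The a-specific genes of budding yeast, MFA1, MFA2, STE2, STE6, BAR1, AGA2 and ASG7, were followed across 23 mutation accumulation lines of Saccharomyces cerevisiae. They were chosen by name as the standard set of genes used by cells of mating type a alone. The choice was made with earlier results of these data known, and all 7 were measured among the 6334 features of the table. Every line, named 19-1 to 19-50 (not all numbers occur) and referred to by the number after the hyphen, was grown unsynchronized to log phase in YPD at 30 °C, and its cDNA was hybridized to a spotted-oligo array against cDNA of strain YPS183 grown in the same medium. Mutation accumulation lines are kept apart over many transfers, during which each collects its own spontaneous mutations, and YPS183 was the common reference on every array. The labels give no genotype, mating type or ploidy for the lines or for YPS183, and no column held the lines' ancestor. Each line was 1 column of log ratios, so no spread within a line could be measured, the order of neighbouring lines for a gene cannot be set against replicate error, and p-values rest on the spread between lines, which includes culture and array.

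Values are log ratios read as log2. The labels give the dye of each channel but not the numerator of the ratio, so values are described as positive or negative as deposited. Turning the ratio would reverse the sign of every value, mean and difference printed here and leave sizes, calls and correlations as they are. All arrays had the same dye orientation, yet 28 of 253 pairs of columns correlated below -0.3 over all features, the lowest being lines 4 and 44 (r = -0.64). The median of a column was -0.018 to 0.018, and its SD was 0.245 to 0.583. Lines 1 and 45 were the most alike pair (r = 0.90 over all features), and they were kept as separate lines. Line 10 had the widest column, with an SD of 0.583 over features, followed by line 6 with 0.485. Across lines, which is another measure, the median feature had an SD of 0.256.

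A haploid yeast cell is of mating type a or alpha, and a diploid carries both types of information. The a-specific genes are kept off by the alpha2 repressor acting with Mcm1, which is present in alpha cells and in a/alpha diploids, and are active with Mcm1 where alpha2 is absent. Cells of type a secrete the lipid-modified peptide a-factor, sense alpha-factor through a receptor coupled to a G protein, degrade alpha-factor outside the cell and bind their partner with a surface agglutinin. Of the 7 genes, MFA1, MFA2, STE6, STE2, BAR1 and AGA2 encode parts of these steps, and ASG7 acts after cells fuse.

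The pheromone genes come first. MFA1 (YDR461W, chromosome IV) encodes an a-factor precursor, and its values ran from -0.27 in line 16 through a median of 0.11 to 1.45 in line 10. Lines 10 (1.45) and 40 (1.10) stood above the others, whose highest value was 0.44, in line 28. Within those 2 columns MFA1 ranked 168 and 190, as 281 and 243 features reached 1 or more there. MFA2 (YNL145W, chromosome XIV) encodes the other a-factor precursor and had a much wider range, from -0.39 in line 8 through a median of 0.14 to 3.53 in line 10. Line 40 followed with 2.29, line 25 with 1.88, line 49 with 1.71 and line 50 with 1.62, while 14 of the 23 lines lay within 0.5 of 0. Whether the spots of MFA1 and MFA2, which encode near-identical peptides, measure separate transcripts was not tested. Lines 10 and 40 were highest for both genes, and lines 25, 49 and 50 were among the next 4 in both, with 0.34, 0.42 and 0.43 for MFA1.

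STE6 (YKL209C, chromosome XI) encodes the ABC transporter that exports a-factor, and its values ran from -0.47 in line 4 through a median of 0.20 to 1.503 in line 10. It was the pheromone-export gene in which lines 10 and 40 parted, since line 40 had -0.47, the second lowest of the 23. The second highest value was 1.19 in line 22, where 2 of the 7 genes were positive.

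STE2 (YFL026W, chromosome VI) encodes the alpha-factor receptor, and its values ran from -0.50 in line 20 through a median of 0.48 to 4.55 in line 10. It reached 1 or more in 7 lines: 4.55 in line 10, 2.86 in line 40, 2.12 in line 25, 1.81 in line 50, 1.56 in line 27, 1.40 in line 49 and 1.22 in line 24. Below these lay line 15 (0.96) and line 19 (0.86), so the lines formed a graded series with no gap between the top pair and the rest as wide as that between lines 10 and 40. Within the column of a line, STE2 was the highest of all 6334 features in lines 25, 27, 40 and 50, and it ranked 2 in lines 10 and 24 and 3 in line 49. In line 10 MFA2 ranked 3, but STE6 ranked 158, AGA2 171 and BAR1 208. In line 40 MFA2 ranked 2, BAR1 50 and AGA2 238. The SD of STE2 across lines, 1.19, ranked 18 among all features, and that of MFA2, 0.998, ranked 58.

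BAR1 (YIL015W, chromosome IX) encodes the secreted protease that cleaves alpha-factor, and its values ran from -0.18 in line 8 through a median of -0.0041 to 1.53 in line 40. Line 10 had 1.28 and line 49 had 0.93, and 19 of the other 21 lines lay within 0.5 of 0. Line 40 thus exceeded line 10 in BAR1, where in MFA1, MFA2, STE2, STE6 and AGA2 line 10 was the higher of the pair in the deposited values. After quantile normalization, which gives every column the same set of values, the order of the pair turned in STE2 (1.84 in line 10 and 2.08 in line 40) and in MFA2 (1.69 and 1.84).

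AGA2 (YGL032C, chromosome VII) encodes the binding subunit of a-agglutinin, and its values ran from -0.31 in line 42 through a median of 0.049 to 1.45 in line 10. Line 40 had 1.01 and line 4 had 0.82. ASG7 (YJL170C, chromosome X) encodes a protein that restrains pheromone signalling through the G protein beta subunit after cells fuse, and its values ran from -0.43 in line 19 through a median of -0.11 to 0.45 in line 7. It was the exception among the 7: line 10 had -0.13 and line 40 had -0.24, both inside the range of the other lines. Its SD of 0.236 over 23 lines lay below the median feature's. Without lines 10 and 40 its SD was 0.243, beside 0.207 for MFA1, 0.264 for BAR1 and 0.245 for the median feature.

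**Figure D1:**
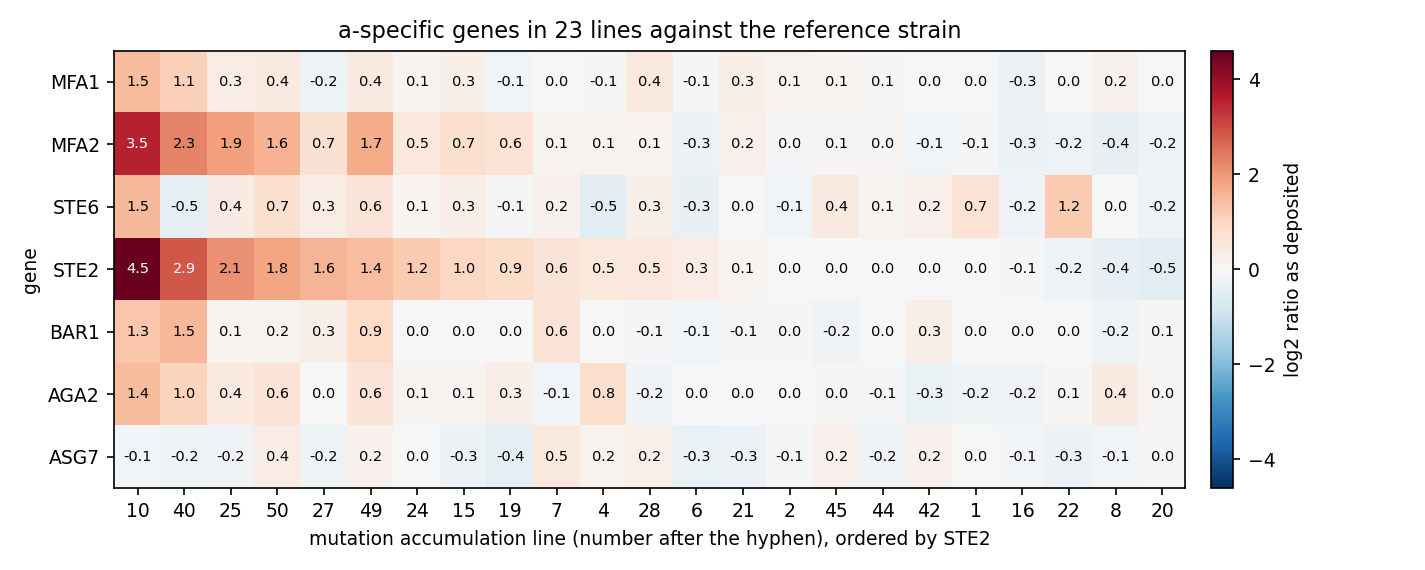
Log2 ratio as deposited (colour and printed value) of the 7 a-specific genes (rows) in the 23 lines (columns), with columns ordered by STE2. Lines 10 and 40 on the left are positive in most genes, ASG7 is near 0 throughout, and STE2 and MFA2 decline together from left to right.

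The mean of each gene over the lines was then tested against 0, the value of equal signal in line and reference. With 1 dye orientation and no ancestor column, such a mean can hold more than a shift shared by the lines. A dye effect and a difference between YPS183 and the lines' ancestor cannot be told apart from it. Cultures also differed in optical density, 1.0 for the lines and 1.1 for the reference. STE2 had a mean of 0.79 ± 0.23 (SE, n = 23, limma adjusted p = 0.0318), with 18 of 23 lines positive. No other member passed an adjusted p of 0.05, so 1 of 7 was called where 9.22% of all features were (3.99% positive and 5.23% negative), a count close to the background. In a culture, a change in the number of cells of a type and a change in RNA per cell cannot be told apart. MFA2 had a mean of 0.56 ± 0.20 (limma adjusted p = 0.0754), STE6 0.22 ± 0.10 (0.151), AGA2 0.22 ± 0.09 (0.121), MFA1 0.20 ± 0.08 (0.122) and BAR1 0.20 ± 0.09 (0.186). ASG7 had -0.04 ± 0.05 (limma adjusted p = 0.671). The median of the 7 means was 0.22, beside -0.00027 for all features, and 6 of the 7 had an unadjusted limma p under 0.05, as did 1539 of the 6334 features.

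Without lines 10 and 40, which were left out because they were already known to be high in these genes, the mean of STE2 was 0.51 ± 0.15 (SE, n = 21, limma adjusted p = 0.0286), positive in 16 of 21 lines. The other means were 0.33 ± 0.14 for MFA2 (limma adjusted p = 0.116), 0.20 ± 0.08 for STE6 (0.116), 0.12 ± 0.06 for AGA2 (0.227), 0.10 ± 0.05 for MFA1 (0.177), 0.08 ± 0.06 for BAR1 (0.378) and -0.03 ± 0.05 for ASG7 (0.784). Again 1 of 7 was called where 12.0% of all features were (5.45% positive and 6.58% negative), 4 had an unadjusted limma p under 0.05, as did 1751 of the 6334 features, and the median of the 7 means was 0.12. The means of MFA1, MFA2, STE2, BAR1 and AGA2 over 23 lines were over 1.5 times those over 21, while that of STE6 moved little. The STE2 call over 23 lines held without lines 10 and 40 and was lost when line 24, 25, 27 or 50 was left out (limma adjusted p from 0.0509 to 0.0537), with a range of 0.00613 to 0.0537 over all 29 alternatives.

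**Figure D2:**
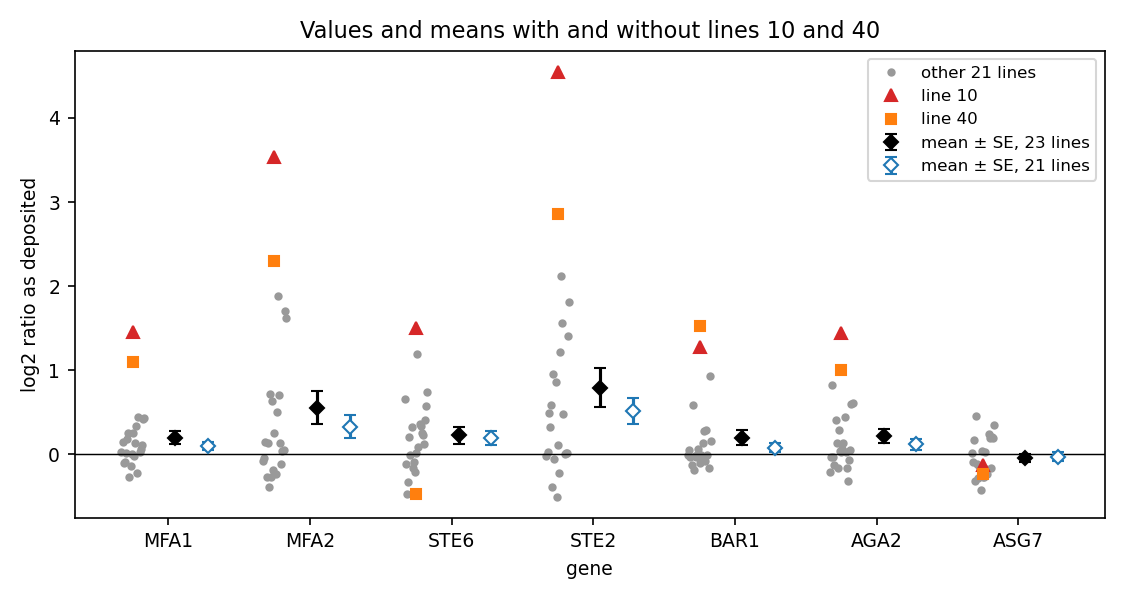
Log2 ratio as deposited (y axis) of each a-specific gene (x axis). Grey points are 21 lines, the red triangle is line 10, the orange square is line 40, and diamonds are means ± SE over 23 lines (black) and 21 lines (open blue). STE2 keeps a mean of 0.51 without lines 10 and 40, where the mean of BAR1 drops to 0.08.

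Single lines were then compared with the mean of all others, for every feature and line, with a call at a limma adjusted p under 0.05 and an absolute difference of 1 or more. None of the 161 pairs of a member and a line was called by limma, where 0.0680% of all pairs of a feature and a line were, and 11 of the 161 had an unadjusted p under 0.05. The lowest p was that of STE2 in line 10, which lay 3.93 ± 0.84 (SE) above the mean of the other lines (0.62), with a limma adjusted p of 0.0820. MFA1 in line 10 differed by 1.31 ± 0.29 (limma adjusted p = 0.108), MFA2 in line 10 by 3.11 ± 0.74 (0.173) and BAR1 in line 40 by 1.39 ± 0.36 (0.247). The share of all pairs at an unadjusted p under 0.05 was not counted. Unadjusted counts for single lines, here and in the lists below, therefore have no background. In this fit the other high line belongs to the lines compared with. Lines 10 and 40 were already known to be high in these genes. Leaving out 1 of them lowers the spread between lines, so calls made that way, here and below, are no separate support. With line 40 left out, STE2 (4.03 ± 0.71, limma adjusted p = 0.0116), MFA2 (3.20 ± 0.64, 0.0416) and MFA1 (1.36 ± 0.21, 0.00350) were called in line 10, where 1.67% of all features were. With line 10 left out, BAR1 was called in line 40 (1.45 ± 0.26, limma adjusted p = 0.0444), where 0.158% of all features were.

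The range of the adjusted p over alternatives was 0.0116 to 1.00 for STE2 in line 10, 0.0416 to 1.00 for MFA2, 0.00350 to 1.00 for MFA1 and 0.0444 to 0.928 for BAR1 in line 40. The upper end came from quantile normalization. It brought the STE2 value of line 10 from 4.55 to 1.84 and its difference from the other lines to 1.15, with the sign unchanged.

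Lines 49 and 50 were the 2 lines in which all 7 genes were positive. In line 50 the values ran from 0.16 for BAR1 to 1.81 for STE2, and the median of the 7 was 0.61. In line 49 they ran from 0.20 for ASG7 to 1.71 for MFA2, and the median was 0.59. Line 25 had a higher STE2 (2.12) and MFA2 (1.88) than either, with a median of 0.37, and its ASG7 was -0.17. At the other end, line 16 had 0 of 7 genes positive, with values from -0.27 to -0.03. The median of the 7 genes was 1.45 in line 10 and 1.10 in line 40, and the median over all features was within 0.018 of 0 in every line.

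Features of chromosome IX were shifted as a whole in lines 49 and 50, by medians of 0.31 and 0.26 above the other lines over 223 features, and BAR1 lies on that chromosome. BAR1 differed from the mean of the other lines by 0.77 in line 49, 0.46 beyond the chromosome's median, and by -0.03 in line 50, 0.29 below it (-0.29). The other 6 genes lie on chromosomes whose medians were within 0.04 of 0 in both lines. In line 20, which had the lowest STE2 value, chromosome VI had a median of -0.22 and STE2 differed by -1.35. The part of these shifts in the BAR1 and STE2 values was not tested. In lines 10 and 40 the medians of the members' chromosomes ran from -0.08 to 0.04.

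Pairs of the 7 genes were compared across the 21 lines other than 10 and 40, since a correlation over all lines would rest on that pair. STE2 and MFA2 had r = 0.91 and Spearman rho = 0.91 (n = 21, permutation p = 1e-05 for each, the smallest that 100000 permutations give, two-sided, and 0.00021 after adjustment over 21 pairs). They had the same sign in 18 of 21 lines, and without lines 25 and 49, the 2 farthest from the median of MFA2, r was 0.90. Of the 21 pairs this was the 1 with an adjusted permutation p under 0.05, by r, by rho and without 2 lines. MFA2 and AGA2 had r = 0.59 (permutation p = 0.00575, adjusted 0.0604), and MFA1 and MFA2 had r = 0.55 (permutation p = 0.0087, adjusted 0.0609). STE6 and AGA2 had the lowest value, -0.02, and the median over pairs was 0.34. All values of a line come from 1 array, and they share its normalization and its culture.

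**Figure D3:**
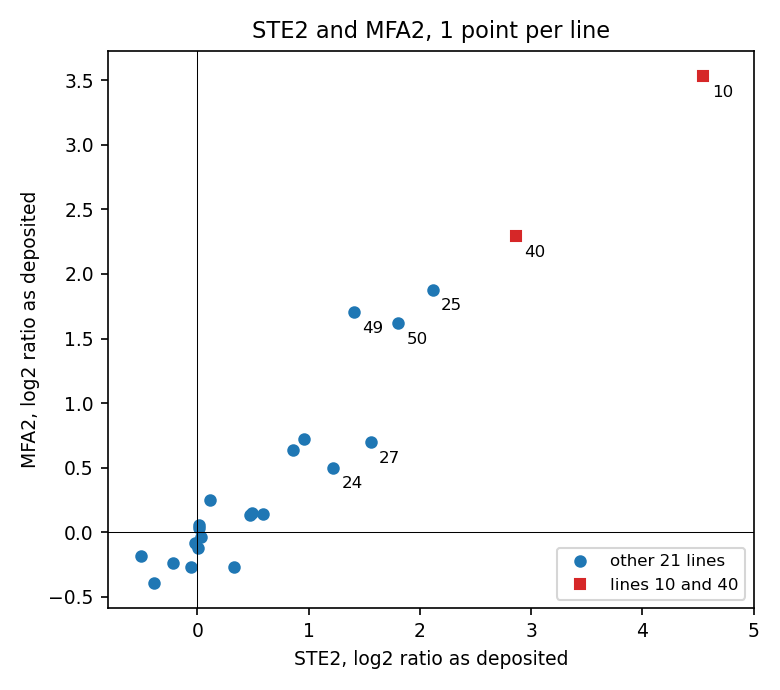
STE2 (x axis) and MFA2 (y axis), log2 ratios as deposited, 1 point per line, with lines 10 and 40 as red squares and lines above 1 in STE2 labelled. Over the 21 blue points r is 0.91, and lines 25, 49 and 50 lie apart from the remaining blue points in MFA2.

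Features other than the 7 were ranked by Pearson r with the mean of the 7, as a description. Over 23 lines that mean followed MFA2 (r = 0.98) and STE2 (0.96) most closely. MFA1 had 0.88, AGA2 and BAR1 0.83 each, STE6 0.51 and ASG7 0.05. Without lines 10 and 40, MFA2 had 0.96 and STE2 0.89, and the others had 0.33 to 0.60. The ranking therefore describes likeness to MFA2 and STE2 more than to the whole set. Over 23 lines the 10 highest were STE4 (r = 0.95), the pheromone G protein beta subunit, FAR1 (0.94), which arrests the cell cycle on pheromone, RDH54 (0.93), a DNA recombination ATPase, YGL193C (0.90), NEJ1 (0.90), a regulator of DNA end joining, GPA1 (0.90), the G protein alpha subunit, FUS3 (0.89), a kinase of the pheromone cascade, YDR210WC (0.88, as the table spells it), MRN1 (0.88) and DIG1 (0.87), an inhibitor of Ste12. Of these, 7 were in the mating lists used below, and of the 10 over 21 lines given next, 4 were. Those lists hold 14 haploid-specific, 11 pheromone cascade, 7 a-factor maturation and 16 pheromone-induced genes of the 6334 features. They were chosen with earlier results of these data known. Over the 21 lines without 10 and 40 the 10 were STE4 (0.86), NRE1 (0.81), FAR1 (0.80), YGL193C (0.79), STE18 (0.78), the G protein gamma subunit, RDH54 (0.77), YNL276C (0.76), MRN1 (0.73), KTR7 (0.72) and NUF2 (0.72). The sets shared 5 features: STE4, FAR1, RDH54, YGL193C and MRN1. NRE1 and KTR7 lie on chromosome IX and had their highest value of the 21 lines in line 49, where that chromosome was shifted. Lines 10 and 40 weigh on the first ranking, since STE4 had 2.72 and 1.58 there and FAR1 had 3.39 and 2.20, while the highest of the other 21 lines was 1.30 for STE4 and 1.34 for FAR1.

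Haploid-specific genes, which the a1-alpha2 repressor keeps off in diploids, were mostly positive beside the a-specific genes. Of 14 measured, 5 had a called positive mean over 23 lines and none a negative one, with 12 at an unadjusted limma p under 0.05: STE4 (0.53 ± 0.14), RDH54 (0.47 ± 0.15), RME1 (0.28 ± 0.07), which represses entry into meiosis, the pheromone transcription factor gene STE12 (0.24 ± 0.07) and AMN1 (0.23 ± 0.07), a regulator of exit from mitosis. The calls of RDH54 and AMN1 were each lost in 15 of 29 alternatives, leaving out 1 line in every case. The background was 3.99% of all features called positive, with 1539 of 6334 at an unadjusted p under 0.05, and the median of the 14 means was 0.25. Without lines 10 and 40, 7 were called positive, where 5.45% of all features were, and the median was 0.16. In line 10 all 14 were positive, from 0.13 for AXL1 to 3.39 for FAR1, with a median of 1.69. In line 40, 13 were positive, from -0.48 for AXL1 to 2.20 for FAR1, with a median of 0.58.

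By departures of single lines, 5 of the 14 were called in line 10, where 1.07% of all features were. HO, the mating-type switching endonuclease gene, was 2.18 ± 0.19 above the other lines (limma adjusted p = 2.12e-06). FAR1 was above by 3.06 ± 0.57 (0.0254), RDH54 by 2.70 ± 0.48 (0.0170), NEJ1 by 1.92 ± 0.33 (0.0120) and FUS3 by 1.71 ± 0.31 (0.0208). All 5 calls were lost under quantile normalization, and those of FUS3, NEJ1, RDH54 and FAR1 also when columns were scaled to 1 median absolute deviation. With line 40 left out, 9 of the 14 were called in line 10, where 1.67% of all features were. In line 40 none of the 14 was called by limma, where 0.0947% of all features were, and 3 had an unadjusted p under 0.05. HO had 0.45 in line 40 beside 2.32 in line 10. The part of the cell state that these genes mark in the a-specific values was not tested.

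The alpha-specific genes, the counterparts used by alpha cells, differed in lines 10 and 40. In line 10 the 4 measured ones lay near 0: MFALPHA1, the alpha-factor precursor gene, at -0.08, the a-factor receptor gene STE3 at -0.16, the alpha-agglutinin gene SAG1 at 0.07 and AFB1, whose product acts as a barrier to a-factor, at 0.26. In line 40 all 4 were positive, with MFALPHA1 at 2.28, AFB1 at 0.96, SAG1 at 0.62 and STE3 at 0.56, each above its highest value in the 21 lines other than 10 and 40 (0.48, 0.35, 0.42 and 0.49). MFALPHA1 was called in line 40, at 2.25 ± 0.21 above the other lines (limma adjusted p = 2.64e-06), and kept its call in all 26 alternatives (0.00395 at most). AFB1 had a limma adjusted p of 0.0267 there but differed by 0.90 ± 0.17, under the minimum of 1, and SAG1 and STE3 were not called (0.581 and 0.837), though all 4 had an unadjusted limma p under 0.05 there. Line 40 therefore had positive values in 5 of the 7 a-specific genes and in the 4 alpha-specific genes at the same time, and line 10 had them in 6 of 7 and in 2 of 4. Over 23 lines none of the 4 had a called mean by limma, and 0 had an unadjusted p under 0.05. Of all 6334 features, 9.22% had a called mean and 1539 had an unadjusted limma p under 0.05.

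Among the 6 features of the mating-type cassettes, HMLALPHA1 had a called mean (0.12 ± 0.04, limma adjusted p = 0.0407), which was lost in 14 of 29 alternatives, 13 of them leaving out 1 line and the other leaving out lines 10 and 40 (0.09 ± 0.03, limma adjusted p = 0.0742). Over 23 lines 9.22% of all features had a called mean. In line 10, HMLALPHA2 had 0.99, HMRA2 0.77, MATALPHA2 0.59, HMLALPHA1 0.56, MATALPHA1 0.15 and HMRA1 0.08. HMLALPHA2 lay 1.05 ± 0.22 above the other lines there. In line 40 the 6 ran from -0.09 for MATALPHA2 to 0.38 for HMRA1. HMRA1 in line 6 had a difference of -1.04 ± 0.20 from the other lines. The silent and expressed cassettes share their sequences, so these spots cannot be assigned to 1 locus each.

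**Figure D4:**
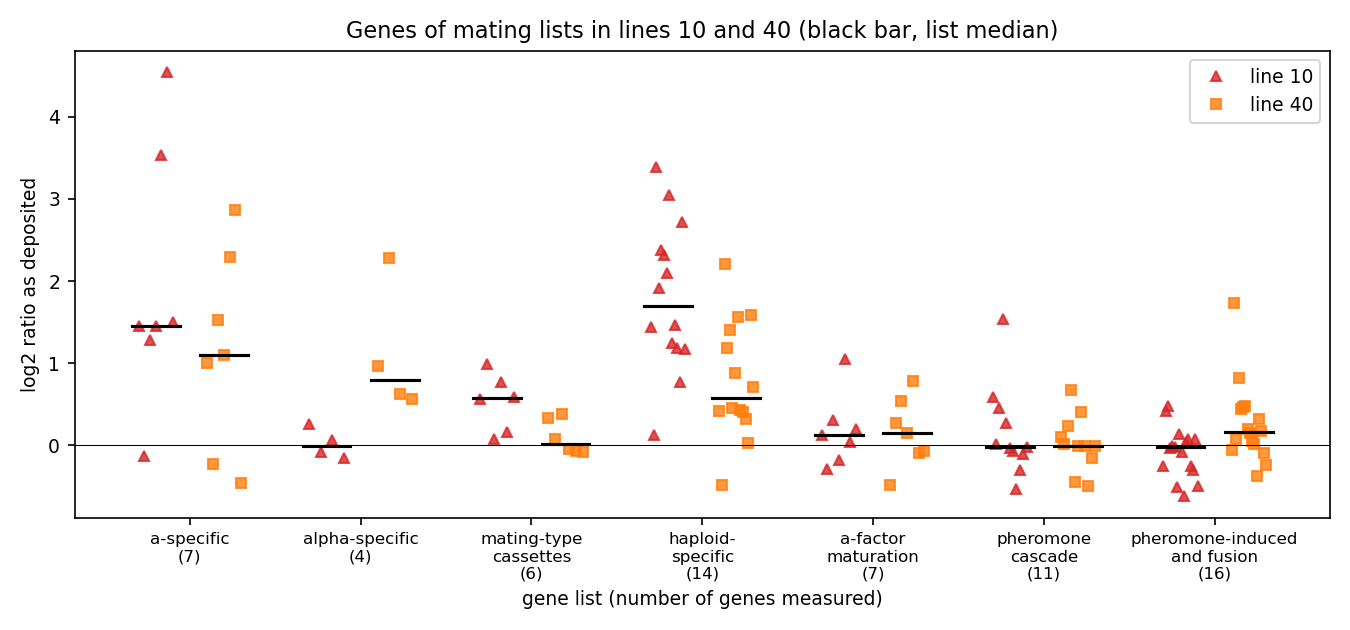
Log2 ratio as deposited (y axis) of each measured gene of 7 mating lists (x axis, number of genes in brackets) in line 10 (red triangles) and line 40 (orange squares), with the list median as a black bar. Haploid-specific genes have medians of 1.69 and 0.58, and alpha-specific genes lie near 0 in line 10 and between 0.56 and 2.28 in line 40.

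The lists of a-factor maturation, the pheromone cascade and pheromone-induced genes had medians between -0.03 and 0.16 in lines 10 and 40. As background, 9.22% of all features had a called mean over 23 lines (3.99% positive), and 1539 of 6334 had an unadjusted limma p under 0.05. Without lines 10 and 40, 12.0% had a called mean (5.45% positive). Of 7 genes of a-factor maturation, none had a called mean by limma, with 1 at an unadjusted p under 0.05. STE14, the methyltransferase of a-factor maturation, had 1.05 in line 10 and 0.79 in line 40. These values differed from the other lines by 0.91 ± 0.31 and 0.64 ± 0.34. Of 11 genes of the pheromone cascade, 2 had a called mean, both positive, the Ste12 inhibitor gene DIG1 (0.26 ± 0.08) and the polarity GTPase gene CDC42 (0.23 ± 0.06), and 3 did without lines 10 and 40. DIG1 had 1.54 in line 10, 1.34 ± 0.27 above the other lines (limma adjusted p = 0.0506), and it was called there with line 40 left out. The call of its mean was lost without line 25, 49 or 50 (limma adjusted p up to 0.0546). Of 16 pheromone-induced and fusion genes, none had a called mean by limma, with 5 at an unadjusted p under 0.05. AGA1, the cell-wall anchor that holds the Aga2 subunit, had 1.74 in line 40 and 0.41 in line 10. It was called in line 40, at 1.64 ± 0.22 above the other lines (limma adjusted p = 0.000999), in 25 of 26 alternatives, and the call was lost under quantile normalization (0.104). FUS1, a cell-fusion gene strongly induced by pheromone, had -0.02 in line 10 and 0.47 in line 40.

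The regulators of these genes were measured too. For comparison, 9.22% of all features had a called mean over 23 lines, and 1539 of 6334 had an unadjusted limma p under 0.05. Of 7 repressor and silencing genes, none had a called mean by limma, with 2 at an unadjusted p under 0.05. MCM1, the partner of alpha2, had -0.36 in line 10 and -0.27 in line 40. The co-repressor genes TUP1 and CYC8 had 0.01 and 0.09 in line 10 and -0.27 and -0.28 in line 40. The silencing genes SIR1 to SIR4 ran from 0.03 to 0.50 in line 10 and from 0.03 to 0.20 in line 40.

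The genes beside the 7 members on their chromosomes were measured as well. By the order of genes in the R64 reference annotation, the 14 nearest measured neighbours had a median of 0.11 in line 10, from -1.48 to 1.20, and of 0.014 in line 40, from -0.49 to 0.80. The neighbours of STE2, GYP8 (0.74) and BST1 (0.85), were both at their highest of the 23 lines in line 10, where STE2 had 4.55. The neighbours of MFA2, YNL146W (-0.99, its lowest of the 23 lines) and MPF1 (-0.16), were negative there, where MFA2 had 3.53. SET2 beside ASG7 had 0.70 in line 10, its highest of the 23 lines, where ASG7 had -0.13. RPL24A beside AGA2 had 1.20 in line 10, its highest of the 23 lines, where AGA2 had 1.45. SNL1 beside BAR1 had 0.80 in line 40, its highest of the 23 lines, and YNL146W had its highest there too (0.40). TFB3 beside MFA1 (-0.49) and YIL014C-A beside BAR1 (-0.22) had their lowest of the 23 lines in line 40. Whether strand or shared sequence enters these spots was not tested.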

How the data were processed

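The deposited table holds 1 log ratio per feature and line, with columns centred near 0, and was read as log2. Its log base, numerator, background correction, normalization method and spot filter are not given in the sources at hand. Per the labels, lines carried Alexa Fluor 555 and the reference 647, with no dye swap. Per the design text each strain had 2 biological replicates, and it does not say whether they were averaged into 1 column. No value was missing. The members matched the R64 annotation by systematic name.

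Means against 0, and each line against all others, were fitted to all 6334 features with limma 3.58.1 in R 4.3.3 (lmFit, eBayes, two-sided). Adjustment was by Benjamini-Hochberg, over features for means and over 145682 pairs of feature and line for single lines. A lone line was assumed to vary like the others. Columns with r of 0.95 or more would have been averaged, and there were none. The fits were tested on simulated data. Python 3.11.15, numpy 2.4.6, pandas 2.3.3, scipy 1.17.1 and matplotlib 3.10.9 did the rest.

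The members, the lists and lines 10 and 40 were chosen with earlier results of these data known. Named genes were the 7 members, the alpha-specific and cassette genes, up to 6 called genes per list for means and for departures, and the 10 most similar features. STE14, FUS1, AXL1, the regulators and the neighbours were added with their values in view. Alternatives left out lines 10 and 40 or each line in turn, rescaled or quantile-normalized columns, averaged lines 1 and 45, used robust eBayes or array weights, or changed the minimum difference. The number of arrays limits the precision.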

Additional observations from a re-analysis of the deposited data

How the results depend on the processing

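Every mean kept its sign in all 29 alternatives. The mean of MFA2 passed the threshold when columns were scaled to 1 median absolute deviation (0.56), quantile normalization (0.52) and array weights (0.48), and that of STE6 under array weights (0.23), so 2, 2 and 3 members were called where 1 was. Leaving out 1 line gave STE2 means of 0.62 to 0.85 and 0 to 1 called members. The count of called means over all features rose as well, from 584 to 732 with scaled columns, 768 under quantile normalization and 1298 under array weights. Leaving out 1 line gave 0 to 3 called departures of members, 3 without line 40 and 1 without line 10, and 0 were called by limma with no minimum difference and with one of 2. The 10 most similar features shared 5 between 23 and 21 lines. Pairs of genes gave 1 called correlation in both settings. The cause of these changes was not tested. No paired analysis was possible because the lines form 1 group. The lack of a second array for a line limits every value of a single line.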
